A study of Mus musculus with 12 samples.

Results

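The retinoic acid pathway was followed through 9 genes in epithelium from the tongues of Langerin-DTR mice. They were the receptor genes Rara, Rarb, Rarg and Rxra, the synthesis genes Rdh10, Dhrs9 and Aldh1a3, the binding protein gene Crabp2 and the clearance gene Cyp26b1. Each was matched by symbol to 1 entry of the 49164 genes with counts, and 8 of the 9 passed the filter on low counts that left 14231 genes for testing. Aldh1a3 did not. The set was chosen with the values of diphtheria toxin against saline already known. Fold changes of these 9 genes are therefore descriptions, and no test is drawn from them.

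RNA was sequenced from 6 samples of mice given diphtheria toxin (DT) and 6 of mice given phosphate-buffered saline (PBS). Both groups carried Langerin-DTR, a transgene that places a receptor for the toxin on cells expressing langerin (Cd207), which in this epithelium are Langerhans cells, and both were injected 2 times a week from 2 weeks of age into adulthood. The sheet of epithelium was freed with dispase and then digested with collagenase and DNase, so the measurements are of a mixed cell preparation. The labels give neither the adult age at sampling nor whether each sample was 1 mouse. In bulk RNA of this kind, fewer cells of a type and less RNA per cell cannot be told apart.

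Retinol taken up from the blood is oxidised to retinal by short-chain dehydrogenases such as the product of Rdh10, and retinal is oxidised to retinoic acid by enzymes of the Aldh1a family. Retinoic acid is carried in the cell by Crabp proteins, binds heterodimers of a retinoic acid receptor and a retinoid X receptor on DNA, and is inactivated by Cyp26 enzymes. In stratified epithelia this signal restrains keratinisation, and lack of vitamin A is known to turn mucosal surfaces towards a cornified state.

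Total counts per sample ran from 21226436 to 34333949, and 3 counts in a sample corresponded to 0.0874 to 0.141 CPM on these unscaled totals. Elsewhere CPM is a count divided by its scaled library total, on the usual CPM scale. Cd207 had 4 counts over the 6 DT samples, against 429 over the 6 PBS samples, so the target of the toxin went with the labels. The epithelial label also held: the summed level of 6 basal keratinocyte markers was 8322 to 10130 CPM in DT and 8918 to 10480 CPM in PBS. Skeletal muscle markers summed to 5.22 to 30.5 CPM in DT and 4.09 to 66.7 CPM in PBS. Of 6 salivary gland markers 5 were detected at low levels, the most abundant being Amy1 with 111 counts over DT and 77 over PBS, and Smgc was at 0 counts in all samples. Within the groups the samples varied along a first principal component that held 31.5% of the within-group variance, with DT 1, DT 2, DT 3, PBS 5 and PBS 6 on one side of it.

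The control region of Rarb is shown because the gene is a classical target of its own ligand, and because it was the only one of the 9 genes whose 6 DT values all lay above the 6 PBS values. RefSeq promoter windows (build GRCm38.p6) were found for 6 of the 9 genes, 11 windows in all. Rdh10, Aldh1a3 and Crabp2 had no window and were not searched. The 250 bases before the Rarb start lie at chr14:16575477-16575726 on the minus strand. They are printed in lower case, with each retinoic acid receptor half-site in capitals, meaning AGGTCA or AGTTCA or GGGTCA or GGTTCA on either strand.
Rarb: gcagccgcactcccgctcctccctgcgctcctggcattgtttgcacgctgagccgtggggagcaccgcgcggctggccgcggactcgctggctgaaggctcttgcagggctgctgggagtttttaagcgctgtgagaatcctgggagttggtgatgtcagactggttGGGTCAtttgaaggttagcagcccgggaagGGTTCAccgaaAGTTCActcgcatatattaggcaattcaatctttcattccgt
The last pair of half-sites forms a direct repeat with 5 bases between, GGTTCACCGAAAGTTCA, which runs from base 53 to base 37 before the start (chr14:16575513-16575529). A direct repeat of this spacing is the textbook form of a retinoic acid response element. The same pattern, searched on both strands with the 4 half-sites in any combination, was present in 29 of 32851 windows (0.0883%), or in 28 of 27025 genes (0.104%). Among the 11 windows of the 6 genes searched it was in that of Rarb only. Repeats with 1, 2, 3 or 4 bases between were in 0.164%, 0.174%, 0.0396% and 0.067% of all windows, and in none of these 11 windows.

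The windows of the clearance gene Cyp26b1 and the synthesis gene Dhrs9 are shown for comparison, since their fold changes were the most negative of the 9. They lie at chr6:84593811-84594060 on the minus strand and chr2:69380212-69380461 on the plus strand (GRCm38.p6).
Cyp26b1: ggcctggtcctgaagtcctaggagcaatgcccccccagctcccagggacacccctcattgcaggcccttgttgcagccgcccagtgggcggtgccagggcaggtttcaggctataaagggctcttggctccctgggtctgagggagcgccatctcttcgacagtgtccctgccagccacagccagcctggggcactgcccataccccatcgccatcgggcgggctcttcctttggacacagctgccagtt
Dhrs9: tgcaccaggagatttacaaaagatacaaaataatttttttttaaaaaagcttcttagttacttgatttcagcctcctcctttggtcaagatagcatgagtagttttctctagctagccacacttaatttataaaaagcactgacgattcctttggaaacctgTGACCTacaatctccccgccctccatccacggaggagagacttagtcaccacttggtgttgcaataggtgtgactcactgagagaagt
The Cyp26b1 window held none of the half-sites, and that of Dhrs9 held 1, TGACCT, which is AGGTCA read on the other strand. At least 1 half-site was present in 38.6% of all windows, a share that such a short pattern reaches in many genes. These letters say only what stands in these windows. They cannot show whether Cyp26b1 or Dhrs9 has response elements elsewhere. The printed windows were picked by the values of DT against PBS, so the contrast between their sequences is no test of what caused those values. Whether retinoic acid acted on any of these genes was not tested. The counts themselves were made on another build, GRCm39.

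Levels of the 9 genes differed widely once divided by exon length (the union of all annotated exons in GENCODE M21). Crabp2, whose protein carries retinoic acid towards the nucleus, stood highest at 93.3 ± 9.45 CPM per kb in DT and 88.9 ± 14.4 CPM per kb in PBS (SD, n = 6 each). Rarg, the main retinoic acid receptor of keratinocytes, followed at 65.2 ± 1.87 CPM per kb in DT and 63.2 ± 4.03 CPM per kb in PBS. Its partner Rxra stood at 32.4 ± 2.15 CPM per kb in DT and 32.8 ± 2.34 CPM per kb in PBS. Below these came Dhrs9, Cyp26b1, Rdh10, Rara and Rarb, with Aldh1a3 last at 0.0813 ± 0.0930 CPM per kb in DT and 0.0534 ± 0.0416 CPM per kb in PBS. In this order Rdh10 and Rara overlapped between samples in both groups. Crabp2 and Rarg, and likewise Rarb and Aldh1a3, overlapped in PBS but not in DT.

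**Figure D1:**
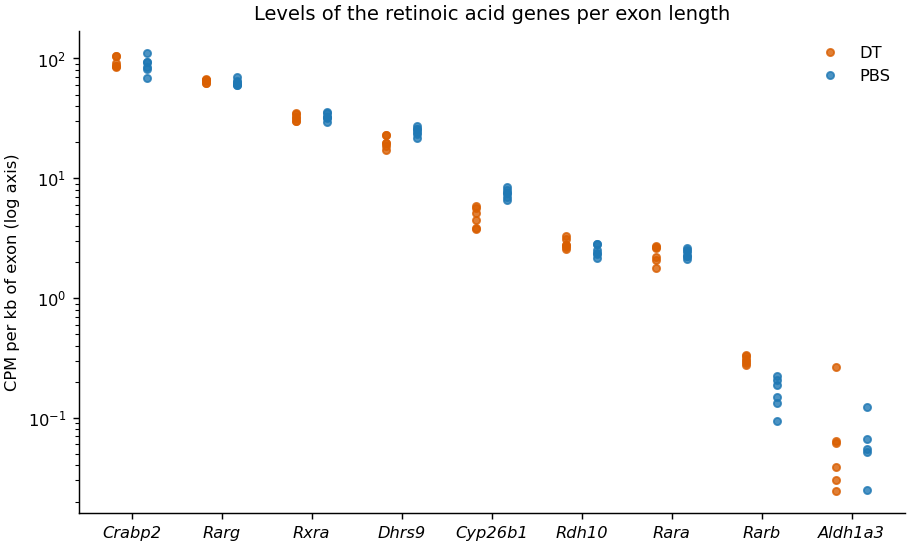
Level per exon length (CPM per kb, log axis) of each gene in 6 DT samples (orange, left) and 6 PBS samples (blue, right), 1 point a sample. Crabp2, Rarg and Rxra stand above 29 CPM per kb in every sample, Rarb reaches at most 0.338, and the PBS sample with 0 counts of Aldh1a3 is not drawn on this axis.

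Of the summed, length-scaled counts of the 3 retinoic acid receptors, Rarg made up 96.1 ± 0.484% in DT and 96.2 ± 0.243% in PBS. Rara made up 3.46 ± 0.484% in DT and 3.59 ± 0.226% in PBS. Rarb contributed 0.452 ± 0.0351% in DT and 0.255 ± 0.0817% in PBS (SD, n = 6 each), and its shares did not overlap, at 0.418 to 0.499% in DT and 0.129 to 0.349% in PBS. Rarb was thus the rarest of the 3, and nearly all of the receptor transcripts were of Rarg in both groups.

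Among the receptors, Rarb was higher in DT. Its counts were 50, 49, 42, 56, 51 and 54 in DT 1 to DT 6, against 21, 16, 29, 32, 13 and 23 in PBS 1 to PBS 6. Scaled for library size, the lowest, median and highest values were 1.46, 1.60 and 1.78 CPM in DT and 0.496, 0.888 and 1.17 CPM in PBS. The groups did not overlap, with means of 1.61 ± 0.119 CPM in DT and 0.873 ± 0.258 CPM in PBS (SD, n = 6 each). Counts this low carry much counting error, so the spreads of the groups are not compared. The log2 fold change, DT over PBS, was 0.88 ± 0.18 (SE). Over all genes tested, 2.21% had groups that did not overlap, and 0.836% had every DT sample above every PBS sample.

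In the fit across all genes 2 of the 8 tested genes of the set, Rarb (higher) and Cyp26b1 (lower), lay past the threshold of an adjusted p of 0.05. The share over all genes was 1.30% (185 of 14231), with 0.443% higher and 0.857% lower in DT. Since the set was picked with this contrast known, nothing is read from its count. Cyp26b1 stayed past the threshold in all 12 fits that left out 1 sample, and Rarb in 6 of them. Rarb fell short without DT 2, DT 3, DT 4, DT 5, PBS 2 or PBS 6, with log2 fold changes of 0.83 to 0.90 in those fits. All 12 fits reuse the contrast known when the set was picked. They describe how far the values depend on single samples and are no test.

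Rarb shares exon sequence with Top2b, a DNA topoisomerase gene on the opposite strand that is far more abundant, and the strand setting of the counting was not given in the sources used here. Top2b had 199.5 to 276.9 CPM in DT and 221.8 to 279.4 CPM in PBS, with a log2 fold change of -0.07 (edgeR adjusted p = 0.742). Within the groups Rarb and Top2b had a Pearson r of -0.128 (permutation p = 0.624) and a Spearman rho of -0.336 (permutation p = 0.193) over 12 samples, and r was -0.580 without the 2 samples farthest from the median of Rarb. With the strand setting unknown, these values cannot show what part reads of Top2b had in the Rarb counts, and this was not tested.

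**Figure D2:**
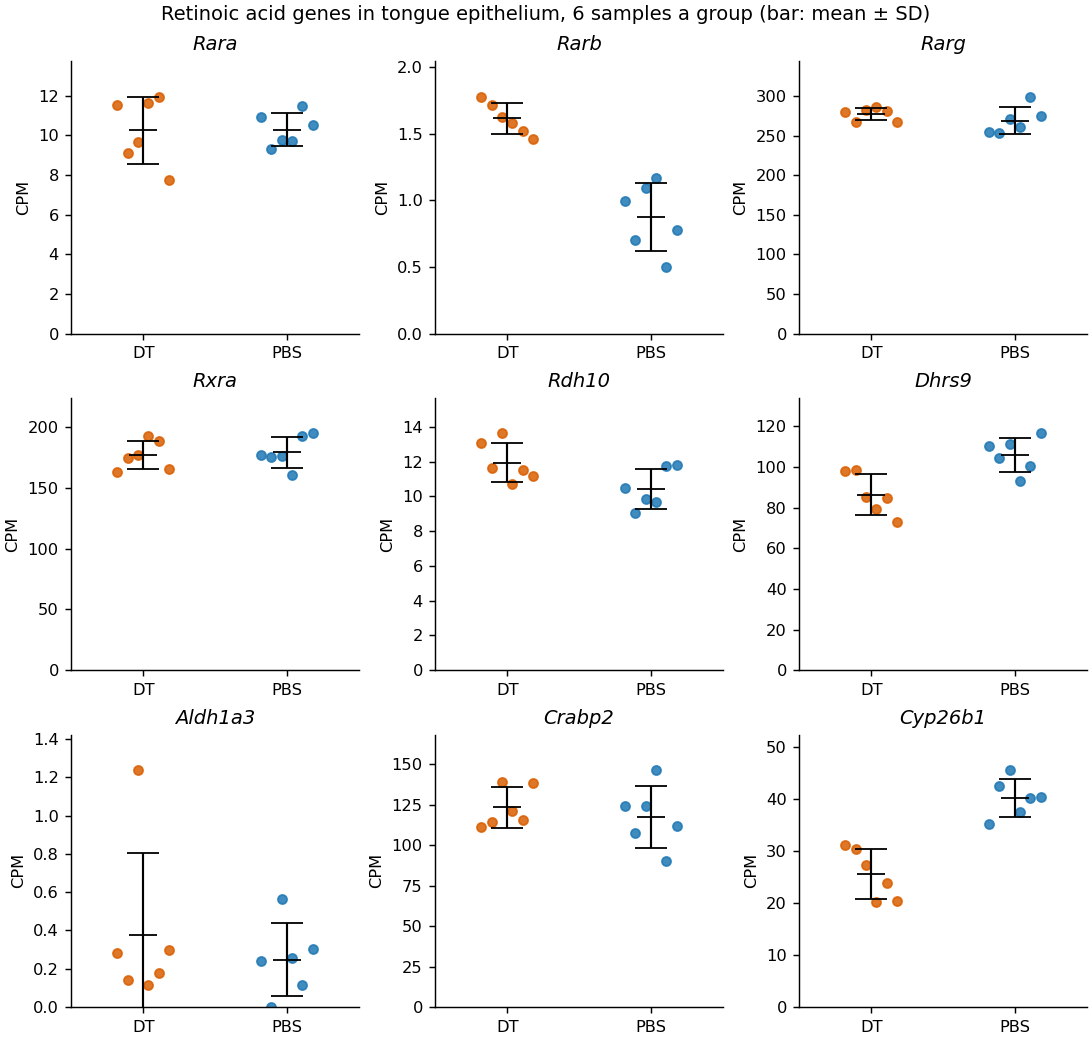
CPM of the 9 genes in DT (orange, left) and PBS (blue, right), 1 point a sample, with bars for mean ± SD over 6 samples and axes starting at 0 (the lower arm of the Aldh1a3 bar in DT is clipped there). Rarb lies above and Cyp26b1 below the PBS samples in all 6 DT samples, while the other 7 genes overlap.

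The other receptors of the set had similar levels in both groups. Rarg ranged over 267.7 to 286.9 CPM in DT (median 280.4) and over 254.1 to 299.6 CPM in PBS (median 266), with a log2 fold change of 0.04 ± 0.05 (SE). Rxra, the retinoid X receptor that pairs with retinoic acid receptors, ranged over 163 to 192 CPM in DT (median 176) and 160.2 to 195 CPM in PBS (median 176), at -0.02 ± 0.06. Rara ranged over 7.74 to 11.9 CPM in DT (median 10.6) and 9.29 to 11.5 CPM in PBS (median 10.1), at -0.0034 ± 0.10. The 95% intervals of these log2 fold changes were -0.07 to 0.16 for Rarg, -0.15 to 0.11 for Rxra and -0.22 to 0.22 for Rara. The signs of Rara and Rxra flipped with the scaling, being positive when scaled by library size alone or by the upper quartile.

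Cyp26b1, the cytochrome P450 that inactivates retinoic acid, had the most negative fold change of the 9 genes. The lowest, median and highest values were 20.2, 25.6 and 31.1 CPM in DT and 35.2, 40.3 and 45.6 CPM in PBS. All 6 DT samples lay below all 6 PBS samples, a separation seen in this direction for 1.38% of all genes tested. Within DT the samples DT 1, DT 2 and DT 3 (27.4 to 31.1 CPM) stood above DT 4, DT 5 and DT 6 (20.2 to 23.9 CPM). The log2 fold change was -0.66 ± 0.11 (SE), with means of 25.6 ± 4.84 CPM in DT and 40.2 ± 3.65 CPM in PBS (SD, n = 6 each), and it ranged from -0.72 to -0.59 when 1 sample was left out.

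The synthesis genes did not move as a group. Dhrs9, a short-chain dehydrogenase that oxidises retinol, had 73.1, 84.9 and 98.5 CPM as lowest, median and highest in DT and 93.2, 107 and 117 CPM in PBS. The groups overlapped through DT 1 and DT 2, and the log2 fold change was -0.30 ± 0.08 (SE). It did not lie past the threshold by edgeR but did by DESeq2, where its log2 fold change was -0.30 as well, and by edgeR when DT 1 was left out (-0.33) or with the first within-group component as a covariate (-0.30).

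Rdh10, the dehydrogenase of the first oxidation step, had 10.7, 11.6 and 13.6 CPM in DT and 9.03, 10.2 and 11.8 CPM in PBS. The groups overlapped, with PBS 5 and PBS 6 inside the DT range, and the log2 fold change was 0.19 ± 0.08 (SE). It did not lie past the threshold, except when scaled by library size alone (0.295, with the median of all genes at 0.11) or with that component as a covariate (0.20). Aldh1a3, which makes retinoic acid from retinal, was barely detected, with 65 counts over the 6 DT samples and 39 over the 6 PBS samples. Of the 65 counts, 32 came from DT 3, and PBS 2 had 0, which allows up to 0.129 CPM on the unscaled total of that sample. No fold change is given for it.

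Crabp2, the abundant cellular binding protein, had 111, 118 and 139 CPM as lowest, median and highest in DT and 90.4, 118 and 146 CPM in PBS. The groups overlapped along most of their ranges, and the log2 fold change was 0.07 ± 0.10 (SE), and its 95% interval ran from -0.14 to 0.28.

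Over the 8 tested genes the median log2 fold change was 0.02, with 4 positive and 4 negative, beside a median of 0.0055 over all genes tested. Set side by side by role, the receptors ranged from -0.02 to 0.88, the tested synthesis genes stood at -0.30 and 0.19, the binding protein at 0.07 and the clearance enzyme at -0.66.

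Levels of the 9 genes also varied between samples of 1 group, a variation that the choice of genes did not use. With the group mean removed from log2 CPM, 0 of the 36 pairs of genes passed a permutation test within groups after adjustment over the pairs, while 4 had an unadjusted p under 0.05 by Pearson's r and 4 by Spearman's rho. Dhrs9 and Cyp26b1 had r = 0.758 (permutation p = 0.0152, adjusted p = 0.274) and rho = 0.797 (permutation p = 0.0091, adjusted p = 0.270) over 12 samples, and r = 0.603 without the 2 samples farthest from the median of Dhrs9. Rara and Rarg had r = 0.556 (permutation p = 0.0136, adjusted p = 0.274) and rho = 0.608 (permutation p = 0.0235, adjusted p = 0.270), and r = 0.576 without the 2 farthest samples. Rarb and Crabp2 had r = 0.735 (permutation p = 0.0254, adjusted p = 0.305), but rho was 0.490 (permutation p = 0.153) and r was 0.239 without the 2 farthest samples, so this relation rests on those samples. Rarg and Rxra had r = 0.621 (permutation p = 0.0419, adjusted p = 0.315) and rho = 0.713 (permutation p = 0.0159, adjusted p = 0.270), and r = 0.608 without the 2 farthest samples. By rho the fourth pair was not Rarb with Crabp2 but Aldh1a3 with Crabp2, at rho = 0.650 (permutation p = 0.0300, adjusted p = 0.270) and r = 0.544 (permutation p = 0.0872, adjusted p = 0.315), and r = 0.484 without the 2 farthest samples.

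Rdh10 followed the main axis of within-group variation. Its r with the first component was -0.870 (permutation p = 0.00039, adjusted p = 0.00351 over the 9 genes) and its rho was -0.804 (permutation p = 0.00257), with r = -0.869 without the 2 farthest samples. Cyp26b1 stood at r = -0.616 (permutation p = 0.0582, adjusted p = 0.175) and rho = -0.601 (permutation p = 0.0604). Dhrs9 stood at r = -0.520 (permutation p = 0.112, adjusted p = 0.251), and the other 6 genes had adjusted p from 0.175 to 0.738. The component was computed from the same counts. Among the 90 relations between the 9 genes and the summed level of 10 marker lists, 1 passed, that of Rdh10 with the salivary gland list (r = -0.917, permutation p = 0.00025, adjusted p = 0.0225, rho = -0.937, permutation p = 0.00025, r = -0.903 without the 2 farthest samples). That list, led by Amy1, summed to 0.348 to 2.49 CPM in DT and 0.229 to 1.75 CPM in PBS.

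**Figure D3:**
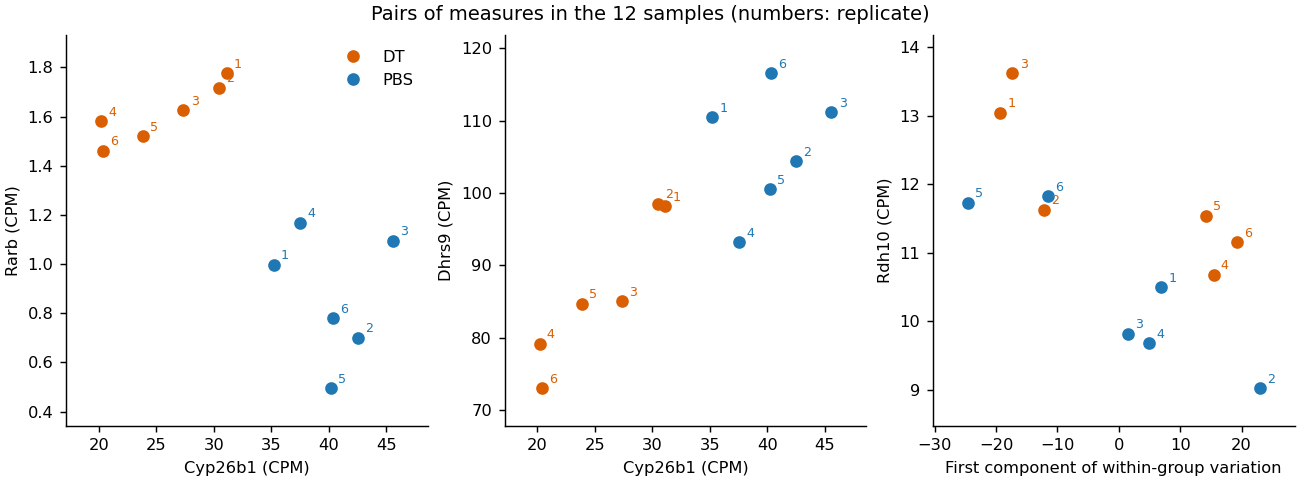
Rarb against Cyp26b1 (left), Dhrs9 against Cyp26b1 (middle) and Rdh10 against the first component of within-group variation (right, no unit), genes in CPM, with DT in orange and PBS in blue and the replicate number beside each point. DT samples fill the corner of low Cyp26b1 and high Rarb, Dhrs9 and Cyp26b1 move together among the DT samples, and Rdh10 declines along the component in both groups. The corner only repeats the group values known when the set was picked. With group means removed, Rarb and Cyp26b1 had r = 0.117 (permutation p = 0.610).

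For each gene the 2 genes most like it were sought among 12359 genes of at least 1 CPM, by Pearson's r of log2 CPM with the group mean removed over 12 samples. With so many candidates these high values are descriptions of likeness only. For Rarb they were Adgrb2 (0.945) and Snrnp70 (0.935), and for Cyp26b1 Kng2 (0.948) and Nrd1 (0.929). Those of Dhrs9 were Ddx51 (0.968) and Rbm7 (0.963), and those of Rdh10 were Get4 (0.952) and Rpl15 (0.946). Rarg was most like Pik3r2 (0.958) and Marchf9 (0.934), Rara most like Tuba1b (0.914) and Slc6a9 (0.884), and Rxra most like Alkbh5 (0.929) and Klhdc10 (0.923). Crabp2 was most like Gas5 (0.922) and Hspe1 (0.919), and Aldh1a3 most like Polr2d (0.940) and Coa6 (0.922). None of the 9 genes was among the nearest of another.

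The rest of the pathway was read from 73 other genes grouped by role, of which 50 were abundant enough to test. By edgeR 0 of them were higher and 1 was lower in DT, with 15 at an unadjusted p under 0.05. Over all genes tested the shares were 0.443% higher, 0.857% lower and 15.4% at an unadjusted p under 0.05. By DESeq2 1 of the 50 was higher and 2 were lower, beside 1.32% higher and 2.71% lower of the 14303 genes to which DESeq2 gave an adjusted p. Of the 50, 20 had positive and 30 negative log2 fold changes, with a median of -0.04.

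The receptor list beyond the set held Rxrb and Ppard as tested genes, and 0 of the 2 passed by edgeR or DESeq2 (both at an unadjusted p under 0.05). Rxrb, another retinoid X receptor, averaged 34.8 ± 3.29 CPM in DT and 30.5 ± 3.52 CPM in PBS, a log2 fold change of 0.19 (edgeR adjusted p = 0.261). Ppard, a nuclear receptor that can bind retinoic acid, stood at -0.17 (edgeR adjusted p = 0.322). Rxrg was nearly silent, with 1 count in DT and 0 in PBS.

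In uptake, binding and storage 9 of 13 genes were tested and 0 passed by edgeR (2 at an unadjusted p under 0.05), against 1 higher by DESeq2. That gene was Crabp1, the second cellular binding protein. It averaged 34.0 ± 6.17 CPM in DT and 25.9 ± 2.88 CPM in PBS, with a log2 fold change of 0.39 (edgeR adjusted p = 0.0810, DESeq2 adjusted p = 0.0224). Its groups ranged over 28.8 to 46.1 CPM in DT and 21.6 to 29.1 CPM in PBS and overlapped narrowly. Lrat, the enzyme that esterifies retinol for storage, stood at 0.739 ± 0.276 CPM in DT and 1.10 ± 0.284 CPM in PBS (log2 fold change -0.59, edgeR adjusted p = 0.253), and Rbp7, a retinol-binding protein, at -0.15 (edgeR adjusted p = 0.359).

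Of 20 genes of retinol and retinal interconversion 14 were tested and 0 passed by edgeR or DESeq2 (4 at an unadjusted p under 0.05). Bco1, which cleaves beta-carotene into retinal, averaged 0.793 ± 0.0605 CPM in DT and 1.12 ± 0.181 CPM in PBS without overlap (log2 fold change -0.50, edgeR adjusted p = 0.108). Adh1, an alcohol dehydrogenase that oxidises retinol, stood at 0.40 (edgeR adjusted p = 0.168) and Sdr16c6, a short-chain dehydrogenase, at -0.14 (edgeR adjusted p = 0.221).

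Of the other aldehyde dehydrogenases listed, 2 of 4 were tested and 0 passed by edgeR or DESeq2 (0 at an unadjusted p under 0.05). Whether each of them acts on retinal was not tested. Aldh1a7 averaged 8.47 ± 1.38 CPM in DT and 7.60 ± 1.362 CPM in PBS (log2 fold change 0.17, edgeR adjusted p = 0.570). Aldh1a1 averaged 1.07 ± 0.249 CPM in DT and 1.03 ± 0.287 CPM in PBS (0.05, edgeR adjusted p = 0.936). Aldh1a2, the main enzyme of mesenchyme and of some dendritic cells, had 8 counts over DT and 13 over PBS.

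The other clearance enzymes were Cyp26a1, Cyp26c1 and Cyp2s1, and only Cyp2s1 could be tested. Cyp26a1 had 25 counts over DT and 15 over PBS, and Cyp26c1 had 8 over DT and 4 over PBS, so the Cyp26 family was represented almost wholly by Cyp26b1, with 4721 counts over DT and 6189 over PBS. Cyp2s1, a cytochrome P450 that can metabolise retinoic acid, averaged 183 ± 11.9 CPM in DT and 212 ± 18.9 CPM in PBS (log2 fold change -0.21). It did not pass by edgeR (adjusted p = 0.123) and was lower by DESeq2 (adjusted p = 0.0362).

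All 8 coregulators were tested and 0 passed by edgeR or DESeq2 (0 at an unadjusted p under 0.05), with log2 fold changes of -0.11 for Ncoa2, -0.10 for Crebbp and 0.06 for Nrip1 (edgeR adjusted p = 0.490, 0.501 and 0.667). Of 12 known retinoic acid targets only 4 were tested and 0 passed by edgeR or DESeq2 (2 at an unadjusted p under 0.05). Bhlhe40, a transcription factor also known as Stra13, stood at 0.15 (edgeR adjusted p = 0.257), Meis1, a homeobox factor, at -0.25 (edgeR adjusted p = 0.263) and Rarres1, a retinoic acid receptor responder, at -0.18 (edgeR adjusted p = 0.425). The target list thus held no call by edgeR or DESeq2. Genes of the set followed first, Rarb and Cyp26b1 among them, were not entries of this list. Whether the response to retinoic acid differed between the groups was not tested.

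Among 10 keratinocyte genes known to respond to retinoids, 1 was lower and 0 were higher in DT by edgeR, with 4 at an unadjusted p under 0.05 and a median log2 fold change of -0.17. The shares over all genes were 0.857% lower by edgeR and 15.4% at an unadjusted p under 0.05. Areg, a ligand of the EGF receptor, fell to 4.69 ± 0.937 CPM in DT, against 7.39 ± 0.875 CPM in PBS, with no overlap (log2 fold change -0.66, edgeR adjusted p = 0.0216, and 0.0508 without DT 4). Hbegf, another such ligand, stood at 0.25 (edgeR adjusted p = 0.242) and Flg, a cornification protein, at -0.47 with 633 ± 181 CPM in DT and 874 ± 164 CPM in PBS (edgeR adjusted p = 0.195).

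**Figure D4:**
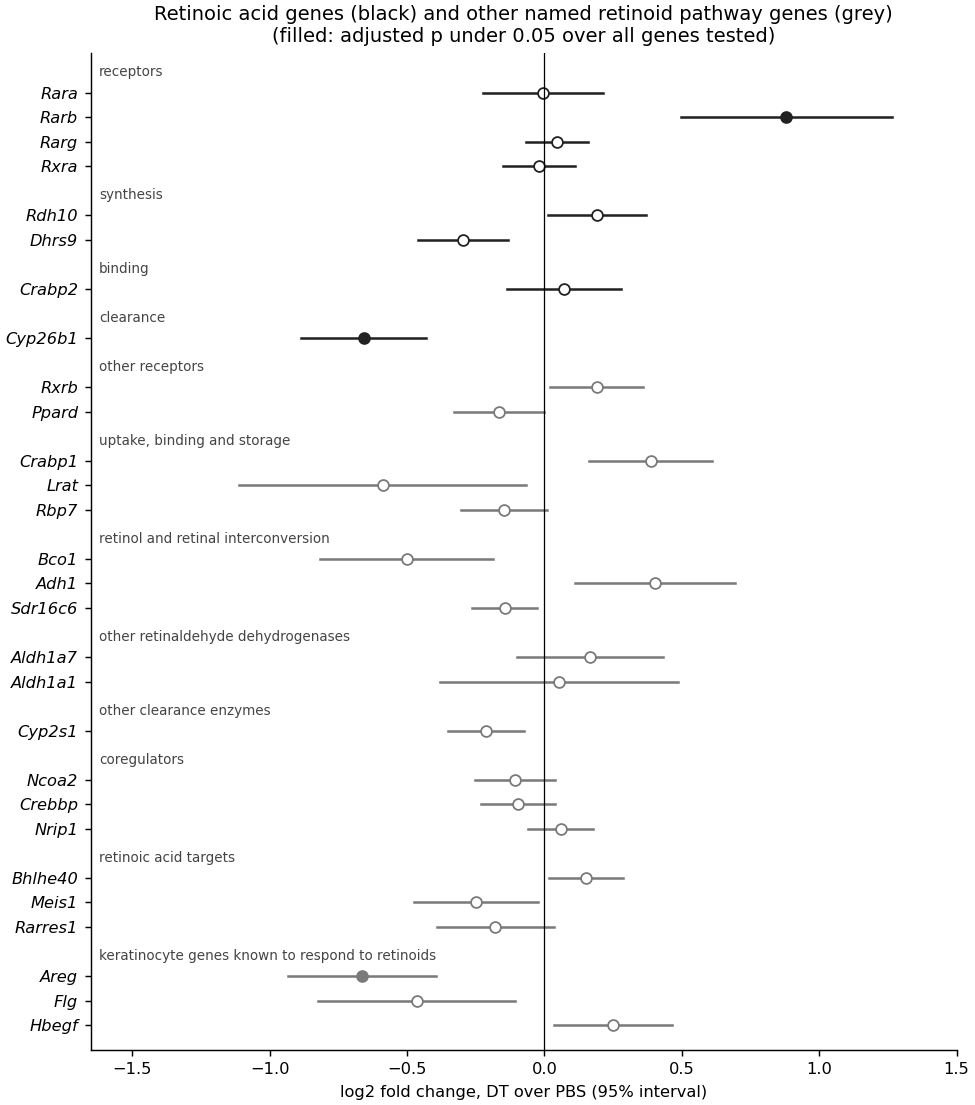
Log2 fold change, DT over PBS, with 95% intervals for the 8 tested retinoic acid genes (black) and up to 3 genes with the smallest p of each other role (grey), filled where the adjusted p over all genes tested is under 0.05. Rarb (0.88), Cyp26b1 (-0.66) and Areg (-0.66) are filled, and the other points are open. The black genes were picked with this contrast known, so their filling is a description only.

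Markers of other cell types were read beside these values as 10 lists, by their summed CPM. Of them 2 had an unadjusted exact permutation p under 0.05 and 0 passed after adjustment over the 10. Macrophage markers summed to 15.7 to 23.8 CPM in DT and 22.4 to 27.7 CPM in PBS (exact permutation p = 0.0173, adjusted p = 0.173), with 0 of 4 tested markers called. Differentiated oral keratinocyte markers summed to 105900 to 137400 CPM in DT and 127800 to 160200 CPM in PBS (exact permutation p = 0.0433, adjusted p = 0.216), with 1 of 6, Krt78, lower. Fibroblast markers summed to 263 to 331 CPM in DT and 254 to 338 CPM in PBS (exact permutation p = 0.677), nearly all of it Dcn. That p therefore speaks mainly for Dcn. The 5 tested fibroblast markers had negative log2 fold changes, from -0.93 for Col1a1 to -0.03 for Dcn, and 0 were called. Langerhans cell markers summed to 162 to 229 CPM in DT and 162 to 226 CPM in PBS (exact permutation p = 0.400). Cd207 was the 1 of these 6 markers called lower, and the rest are also expressed by other cells. Endothelial markers summed to 3.78 to 6.02 CPM in DT and 3.45 to 10.1 CPM in PBS (exact permutation p = 0.0671), Schwann cell markers to 62.2 to 69.4 CPM in DT and 57.4 to 80.2 CPM in PBS (exact permutation p = 0.931), and taste cell markers to 5.17 to 10.6 CPM in DT and 5.57 to 9.14 CPM in PBS (exact permutation p = 0.974). The exact permutation p was 0.249 for skeletal muscle, 0.641 for salivary glands and 0.569 for basal keratinocytes. The part of these cell types in the levels of Rarb, Cyp26b1 and Dhrs9 was not tested.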

How the data were processed

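Per the submitters' processing notes, cutadapt 2.10, TopHat2 2.1.1, HTSeq 2.01 and DESeq2 1.36.0 were used with genome build GRCm39. Which annotation was counted, and with which strand setting, is not given in the sources used here. Raw reads per gene were deposited as counts. A second deposited set of values, a signal, equals each count over its size factor and served only as a check. Of 55414 genes, 6250 had blank counts and were left out. No pair of replicates was a repeated library (chi-square per degree of freedom 6.25 to 55.6). This measure was 7.82 to 9.22 among DT 1 to DT 3 and 7.69 to 14.7 among DT 4 to DT 6. Across these it was 21.9 to 47.6. PBS 5 stood at 47.8 to 55.6 from PBS 1 to PBS 4. Unless each sample was a separate mouse, the p-values here reflect a spread that may be technical.

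The fit used edgeR 4.0.16 under R 4.3.3 (filterByExpr, TMM scaling, two-sided quasi-likelihood F test of DT against PBS, Benjamini-Hochberg adjustment over 14231 genes, threshold 0.05). Each standard error was the log2 fold change over the root of F. CPM refers to TMM-scaled libraries, except for the floors, which use unscaled totals. DESeq2 1.42.0 was an alternative. Correlations used log2 CPM minus the group mean, with 100000 two-sided permutations within groups. These permutations treat the samples of a group as exchangeable, which was not tested. Marker sums were compared by two-sided exact permutation over samples. Floors cover counting error only. The fits and correlations were tested on simulated data.

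The 9 genes and all lists were chosen with earlier results of these data known. Genes named beyond the 9 were those past the threshold and up to 3 with the smallest p in each role, and the 2 most alike to each gene. Top2b was named after its values were seen.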

Additional observations from a re-analysis of the deposited data

Results flagged for a closer look

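In 29 named genes, or 58 groups of 6 samples, 7 groups held a sample whose gap to its nearest neighbour relative to the range of the group passed the 95% critical value of Dixon. Chance alone flags about 1 in 20 groups. Among the 9 retinoic acid genes this was so for Aldh1a3 in DT, where DT 3 stood at 1.24 CPM and the other 5 samples at 0.113 to 0.298 CPM. DT 3 was also the high sample for Crabp1, at 46.1 CPM against 28.8 to 34.0 CPM in the other DT samples. PBS 5 stood apart for 4 genes: it was high for Areg (9.13 CPM, others 6.74 to 7.36 CPM), Bco1 (1.49 CPM, others 1.01 to 1.08 CPM) and Rarres1 (52.4 CPM, others 34.3 to 39.6 CPM), and low for Nrip1 (55.8 CPM, others 63.2 to 66.7 CPM). DT 5 was low for Crebbp, at 73.9 CPM against 80.2 to 83.8 CPM.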

How the results depend on the processing

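Of 152 refitted log2 fold changes of the 8 tested retinoic acid genes under 19 alternatives, 124 kept their direction and side of the threshold. The 15 sign changes were all of Rara and Rxra. Rara stood at 0.016 with upper quartile scaling, 0.10 with library size alone, 0.0032 with no filter and 0.00072 with the first within-group component as covariate, and between -0.053 and 0.068 when 1 sample was left out. Rxra stood at 0.00044 with upper quartile scaling, 0.088 with library size alone and -0.045 to 0.0066 with 1 sample left out. Library size alone moved the median of all genes to 0.11.

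Across all genes the 185 calls (63 higher) became 169 with upper quartile scaling (81 higher), 553 with library size alone (484 higher), 576 with DESeq2 and 1257 with the component as covariate, and 46 to 263 with 1 sample left out. Without DT 2 to DT 6 they were 102, 72, 77, 46 and 114, and without PBS 1 to PBS 4 they were 97, 56, 67 and 115. The 2 calls among the retinoic acid genes became 4 with the component, adding Dhrs9 and Rdh10, 3 with library size alone, adding Rdh10, 3 with DESeq2, adding Dhrs9, and 1 to 3 with 1 sample left out. The 1 call among the other pathway genes became 3 with library size alone, 2 with no filter, 3 with DESeq2 and 9 with the component, and 0 without DT 4 (1 without each other sample). The 0 correlated pairs stayed 0 under 3 other scalings and with each sample left out. The cause of these shifts was not tested.

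The labels give same-numbered samples of the groups a shared number and do not say whether they were handled together. Their deviations correlated at -0.33 to 0.11, and 0 of 12 samples correlated best with their own number. Such correlations cannot exclude a pairing. With the replicate number as a block there were 8 calls over all genes, 0 among the retinoic acid genes and 0 among the other pathway genes. In that fit the log2 fold change was -0.67 for Cyp26b1 (edgeR adjusted p = 0.0548) and 0.91 for Rarb (edgeR adjusted p = 0.134). Aldh1a3 and 23 other pathway genes did not pass the filter. At these depths a count of 0 in a sample allows up to 0.0874 to 0.141 CPM on unscaled totals.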
